A study of Mus musculus with 4 samples.

Results

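The DNA replication machinery is described here by 46 genes, chosen by symbol from the 27293 named genes of a table of read counts. They comprise the origin recognition complex (Orc1 to Orc6), the licensing factors Cdc6, Cdt1 and Gmnn, the Mcm genes Mcm2 to Mcm10, Cdc45, GINS (Gins1 to Gins4), the replicative polymerases with primase, the clamp Pcna with its loader (Rfc1 to Rfc5), replication protein A (Rpa1 to Rpa3), Fen1 and Lig1. The rule uses symbols and no measured value, although it was set with earlier results of these data known. In the deposited annotation 41 of them carry a term with the words DNA replication, which 241 of the genes tested do, and they lie on 14 chromosomes, with 7 on chromosome 5. RNA was taken from telencephalic tissue of C57BL/6 mouse embryos at embryonic day 13 (E13). There were 2 libraries labelled wild type (WT 1 and WT 2) and 2 of the genotype STINGf/f;Nestin-Cre (cKO 1 and cKO 2), in which both alleles of the STING gene are floxed and Cre recombinase is driven by the Nestin promoter, active in neural progenitors. The labels name no treatment for either group, and the RNA comes from all cells of the tissue.

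DNA replication starts where the origin recognition complex binds DNA. Cdc6 and Cdt1 then load the MCM2-7 ring, the core of the replicative helicase, which Cdc45 and GINS activate in S phase. Polymerase alpha with primase lays down primers, polymerase epsilon extends the leading strand, polymerase delta extends the lagging strand, and Fen1 and Lig1 join the Okazaki fragments. In the embryonic telencephalon, cells divide mainly in the ventricular and subventricular zones, and neurons that have left the cell cycle no longer replicate their DNA. Many of these genes are textbook targets of the E2F transcription factors.

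Promoter sequence was read from RefSeq (GRCm38.p6, 250 bases before to 50 bases after each listed start), which held 38 of the 46 genes. Letters of the E2F type were searched on both strands, in a 7-letter form that reads TTCCCGC or may read TTCGCGC or may read TTGCCGC or may read TTGGCGC. A longer, 8-letter form reads TTTCCCGC or may read TTTGGCGC, and each of these contains a 7-letter spelling. A 7-letter spelling was present in 25 of the 38 genes (65.8%), against 10.9% of the 27025 genes of the promoter table and 13.7% of its 17492 protein-coding genes. An 8-letter spelling was present in 15 genes (39.5%), against 1.8% of all genes and 2.31% of protein-coding genes. These promoters were also richer in GC, with a median GC content of 61.3% against 52.7% for all genes of the promoter table and 56.3% for its protein-coding genes. The letters are a description of these windows, and the shares were not tested. The stretches below, written in the direction of the gene with matching letters in capitals, are from genes of the pre-replicative complex, the helicase and polymerase alpha, and overlap no annotated exon. Those of Mcm5 (chr8:75109330-75109397, plus strand), Mcm6 (chr1:128359715-128359782, minus strand) and Pola1 (chrX:93632256-93632323, minus strand) lie upstream of the annotated gene. Those of Cdc6 (chr11:98907983-98908050, plus strand), Mcm7 (chr5:138171343-138171409, minus strand) and Orc4 (chr2:48949371-48949437, minus strand) lie within its span, before an inner start.
Cdc6: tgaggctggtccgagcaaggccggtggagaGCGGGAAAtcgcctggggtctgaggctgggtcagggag
Mcm5: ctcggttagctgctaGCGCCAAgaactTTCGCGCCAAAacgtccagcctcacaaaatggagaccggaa
Mcm6: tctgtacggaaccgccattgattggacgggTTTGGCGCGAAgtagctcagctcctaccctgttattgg
Mcm7: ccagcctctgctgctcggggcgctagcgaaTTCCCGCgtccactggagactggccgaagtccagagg
Orc4: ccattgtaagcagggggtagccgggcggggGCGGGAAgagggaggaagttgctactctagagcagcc
Pola1: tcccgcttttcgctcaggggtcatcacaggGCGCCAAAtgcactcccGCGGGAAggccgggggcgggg
In Mcm5 and Mcm6 the letters of both strands ran into each other, so that neighbouring matches overlapped. The median log2 fold change between cKO and WT, described below, was 0.0958 for the 25 genes with a 7-letter spelling and 0.0965 for the 13 without.

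Counts on genes summed to between 17209654 (WT 1) and 18533391 (WT 2) per library, so that 3 counts, the limit that a count of 0 allows, equalled 0.162 to 0.174 CPM (counts per 1000000 counts on genes of the library). Whether the 2 libraries of a group came from separate embryos is not given in the sources used here, so p-values measure the spread between libraries. The STING gene, listed as Tmem173, had 20, 19, 18 and 22 counts in the order WT 1, WT 2, cKO 1, cKO 2 (the order of libraries used throughout), with a log2 fold change of 0.02 (95% interval -1.02 to 1.06). A gene-level count adds exons inside and outside a floxed part, so this does not check the genotype, and the libraries are named by their labels. The title of WT 2 carries the abbreviation nes where that of WT 1 has wt. The labels give both libraries the genotype WT and do not explain nes, so whether Nestin-Cre was present in WT 2 is unknown here, and the comparisons rest on the genotype label. Markers of the labelled tissue were abundant: Vim and Nes, intermediate filaments of progenitors, had 797 to 901 and 498 to 596 CPM. WT 1 stood apart by markers of choroid plexus (6 genes of the list in the 4-library table, summed 48.4 CPM in WT 1 and 9.60 in WT 2, against 6.47 and 8.46 in cKO) and of meninges and mesenchyme (8 genes, 297 and 53.0 CPM, against 76.5 and 39.8). cKO 1 was lowest for markers of ventral telencephalon (6 genes, 577 CPM, against 846 to 914 in the other libraries), and their part in the results was not tested. The ratio of cKO 2 to cKO 1 went with the GC content of the transcripts, as described with Orc4. Which of these libraries carries that trend was not tested.

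All 46 replication genes were expressed in every library. Their lowest count was 20 (Fen1 in WT 2), and all passed the filter on low counts that left 16145 genes for testing. The median of their mean CPM was 52.5, against 21.97 for all genes tested, and 43 of the 46 had at least 10 CPM in every library. Levels between genes are compared per kilobase of annotated exon. On that scale Pcna was highest (116 CPM per kilobase), followed by Mcm7 (71.7), Pole3 (45.97), Mcm5 (43.6) and Mcm3 (42.9), and the last 3 overlapped each other over their libraries. The lowest were Fen1 (0.551), Orc1 (1.55) and Mcm9 (2.00). Of their exon bases 84.2%, 10.8% and 19.2%, in that order, are shared with other genes, which makes these levels uncertain. With the length of the principal transcript in place of all exons, Pcna (184) and Mcm7 (107) were still highest and Mcm2 (58.6) and Mcm6 (57.9) came next. The order below Mcm7 thus depended on the length used.

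**Figure D1:**
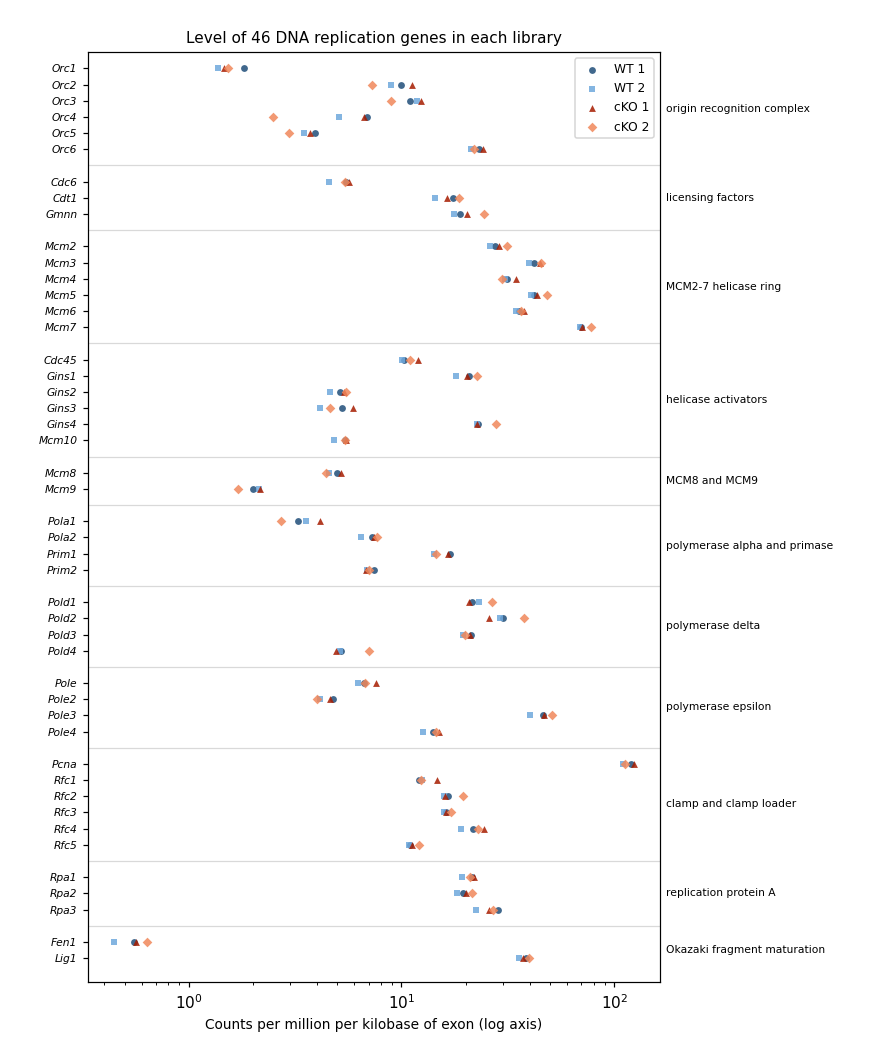
Level of each of the 46 genes in each library, in CPM per kilobase of exon on a log axis, by role; circles and squares are WT 1 and WT 2, triangles and diamonds cKO 1 and cKO 2. Most points of a gene lie close together across the 4 libraries, from 0.551 for Fen1 to 116 for Pcna as the mean, and Orc4 in cKO 2 lies apart to the left.

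The question put to these genes was whether their transcripts differ when STING is deleted in neural progenitors. None of the 46 genes was called at the thresholds of the study (at least 2-fold and unadjusted p of at most 0.05, edgeR's quasi-likelihood test), which 0.811% of all genes tested met, and DESeq2 called 0 of the 46 as well. None had an unadjusted p of at most 0.05, against 1.23% of all genes, and 0% of genes, these included, had an adjusted p under 0.05 (Benjamini-Hochberg adjustment over all 16145 genes, adjusted p = 0.9999 for every replication gene). The smallest unadjusted p was 0.140, for Gmnn. The fitted log2 fold changes ran from -0.39 (Orc4) to 0.30 (Gmnn), with standard errors (SE) between 0.14 and 0.43. The 95% interval of the fold change lay within 2-fold in either direction for 44 of the 46 genes (95.7%), against 70.2% of all genes tested. It lay within 1.5-fold for 35. The exceptions to 2-fold were Orc4, whose interval reached down to -1.29, and Fen1, whose interval reached up to 1.27.

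Most of the differences were small and pointed upwards in cKO. The median log2 fold change was 0.10, or 1.07-fold, against -0.0094 for all genes tested, and it was above 0 in 38 of the 46 genes (82.6%), against 47.9% of all genes. Both cKO libraries lay above both WT libraries in 17 genes (37.0%), against 10.4% of all genes, and below both in 0 genes, against 11.2%. Summed over the 46 genes, the level in the 4 libraries was 3333, 3140, 3432 and 3436 CPM, or 3236 ± 137 in WT and 3434 ± 2.8 in cKO (SD, n = 2), a ratio of 1.06. The groups did not overlap, but the WT libraries differed from each other by more than WT 1 differed from either cKO library. WT 2 was below WT 1 in 41 of the 46 genes, with a median log2 ratio of -0.12, while cKO 1 and cKO 2 exceeded WT 1 by a median of 0.04 each. Against WT 2 the medians were 0.18 and 0.16. With WT 1 left out, the median fitted log2 fold change was 0.14 and 41 genes lay above 0. With WT 2 left out it was 0.09 and 34 lay above 0. With cKO 1 left out it was 0.12 and 32 lay above 0, and with cKO 2 left out it was 0.12 and 41 lay above 0. The highest of the 4 levels was in WT 1 for 8 genes, in WT 2 for 0, in cKO 1 for 18 and in cKO 2 for 20.

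**Figure D2:**
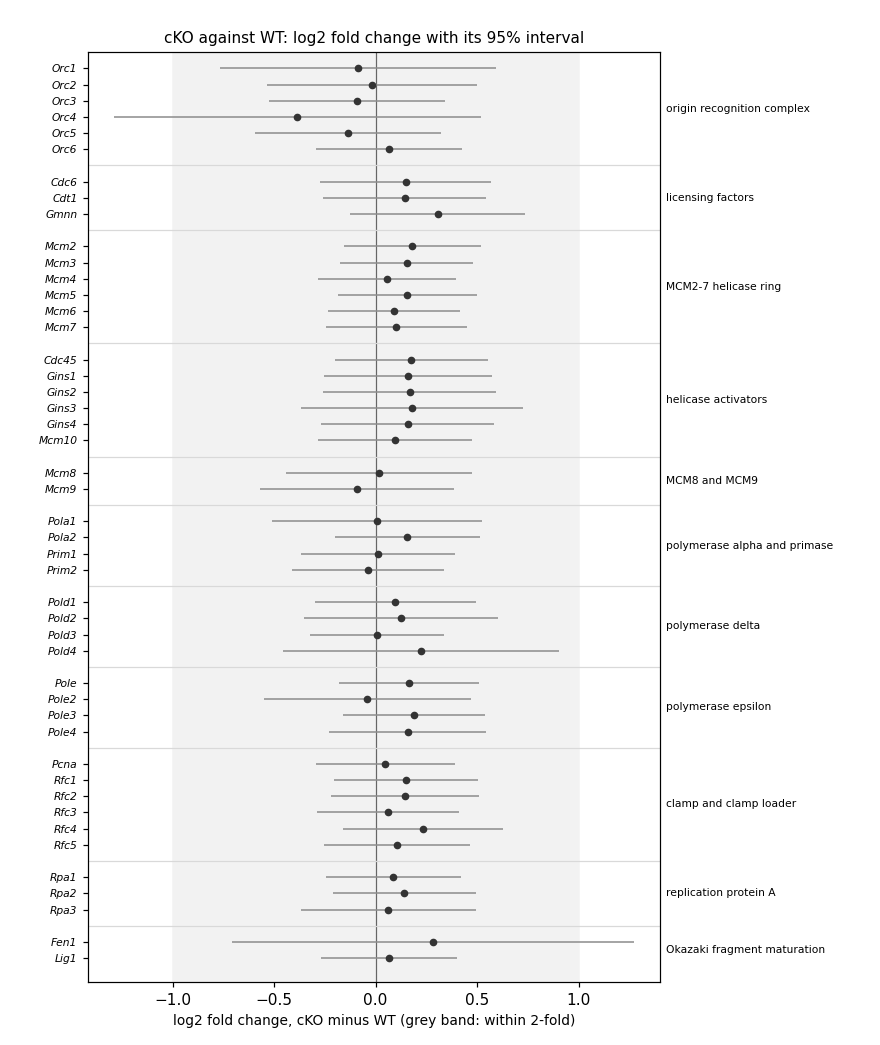
The log2 fold change of each gene, cKO minus WT, as a point with its 95% interval as a line (edgeR, 2 against 2 libraries), by role; the grey band marks changes within 2-fold. All 46 intervals cross 0, and those of Orc4 and Fen1 leave the band.

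Summed markers of cortical progenitors (10 genes) had the same order between the WT libraries, with 2830 and 2644 CPM, against 2922 and 2908 in cKO. The summed level of neuron markers (8 genes) was highest in WT 2, at 6353 CPM, against 5511 in WT 1 and 5331 to 6048 in cKO. Not every gene followed its sum. Between the WT libraries, Lhx2 (436 and 451 CPM in WT 1 and WT 2) and Fabp7 (394 and 402) were higher in WT 2. The other progenitor markers were lower there. Of the progenitor markers, 8 had a log2 fold change above 0. Sox2 (214, 184, 189 and 165 CPM in library order) and Hes5 lay below 0. Of the neuron markers, Tubb3 and Stmn2 were highest in cKO 2, and Map2, Neurod6 and Tbr1 in cKO 1. None of the genes of either list was called. In bulk tissue, fewer cells of a type and less RNA per cell cannot be told apart, and the part of cell composition in the 1.06-fold difference was not tested.

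The origin recognition complex was the role with most genes lower in cKO, 5 of its 6 genes, with a median log2 fold change of -0.09. Without cKO 2, 4 of these 5 (Orc2 to Orc5) lay above 0, by 0.02 to 0.26. Orc3, the subunit with the most reads, had 66.8 and 71.7 CPM in WT 1 and WT 2 and 75.4 and 54.1 in cKO 1 and cKO 2, a log2 fold change of -0.09 (SE 0.19). cKO 1 was the highest and cKO 2 the lowest library. Orc2 showed the same order, with 38.2 and 34.4 CPM in WT and 43.3 and 28.1 in cKO. Orc5 had 24.1 and 21.5 CPM in WT and 22.9 and 18.3 in cKO, and Orc1, the largest subunit, had 6.33 and 4.80 in WT and 5.10 and 5.31 in cKO. Orc6 was the highest per kilobase (22.7) and the 1 subunit above 0, with 57.2 and 52.4 CPM in WT and 59.7 and 54.4 in cKO (log2 fold change 0.07). The groups overlapped for all 6 subunits.

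Orc4, an ATP-binding subunit of the complex (ENSMUSG00000026761, GRCm38 chr2:48902824-48950277, minus strand), varied most. In the 4 libraries it had 887, 700, 902 and 336 counts, or 51.5, 37.8, 49.5 and 18.6 CPM. The libraries of the same label thus differed more than the groups, and the log2 fold change was -0.39 (SE 0.39, 95% interval -1.29 to 0.52). It was -1.24 without cKO 1 and 0.16 without cKO 2. Orc4 took 16.97% to 21.1% of the summed CPM of the 6 subunits in the other libraries and 10.4% in cKO 2. Its exons share 5.98% of their bases with Acvr2a on the opposite strand, which had 1180, 1187, 1146 and 526 counts and was likewise low in cKO 2. Mbd5, also on the opposite strand, shares 1.82% and had 596, 710, 738 and 582 counts, with close counts in WT 1 and cKO 2. Whether reads were counted by strand is not given in the sources used here.

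Orc4 also had the lowest GC content of the 46 genes, 36.8% of its principal transcript. Across the 46 genes, which share library and depth, the log2 ratio of cKO 2 to cKO 1 went with transcript GC (Pearson's r = 0.74, Spearman's rho = 0.72, n = 46). The same held over all genes tested (r = 0.53, rho = 0.61, n = 16098). The ratio of WT 2 to WT 1 gave r = 0.28 over the 46 genes and 0.11 over all. The log2 fold change of cKO against WT also went with transcript GC. It gave r = 0.56 and rho = 0.52 over the 46 genes, and r = 0.20 and rho = 0.27 over all. The genes lowest in cKO 2 relative to cKO 1 were Orc4 (log2 ratio -1.41), Orc2 (-0.62), Pola1 (-0.59) and Orc3 (-0.48), with a GC content between 36.8% and 44.4%. The highest were Pold2 (0.55) and Pold4 (0.51), at 58.7% and 57.3%. With an offset that removes each library's trend with GC, chosen after seeing the data, the log2 fold change of Orc4 was -0.16, and those of Orc2 and Orc3 were 0.04 and 0.00996. Over the 46 genes the median with this offset was 0.113 and 41 genes lay above 0, against 0.103 and 38 without it.

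**Figure D3:**
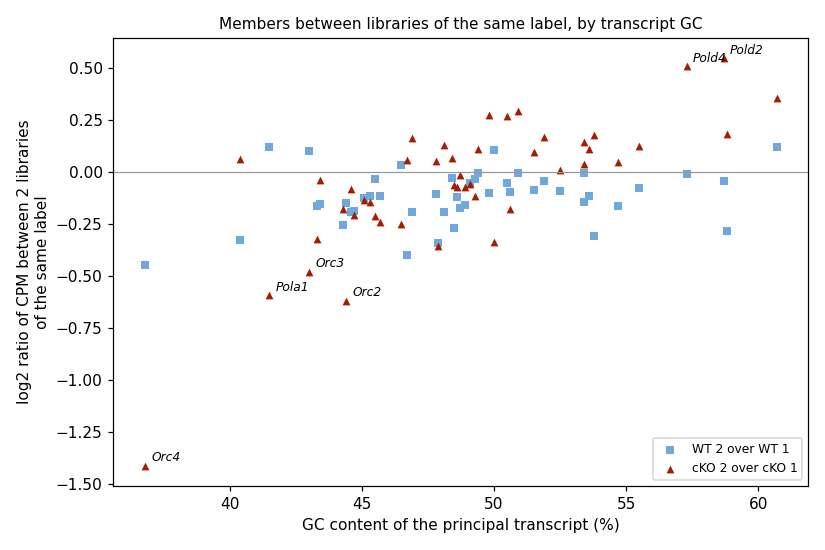
The log2 ratio of CPM between the libraries of 1 label, cKO 2 over cKO 1 (triangles) and WT 2 over WT 1 (squares), against the GC content of the principal transcript in percent, 1 point a gene (46 genes). The triangles climb from Orc4 at 36.8% GC to Pold2 at 58.7%, and most squares lie just below 0 at every GC content.

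The licensing factors were all above 0. Gmnn encodes geminin, which binds Cdt1 and prevents a further round of licensing (chr13:24751845-24761923, minus strand). It had 27.7 and 25.8 CPM in the WT libraries and 29.7 and 35.9 in cKO, 26.7 ± 1.32 against 32.8 ± 4.39 (SD, n = 2). Its log2 fold change was the highest of the 46 genes. The groups did not overlap, but the log2 fold change of 0.30 (SE 0.19, 95% interval -0.12 to 0.73) did not pass the test. Cdt1, the MCM loader that geminin inhibits, had 54.9 and 45.0 CPM in WT and 51.4 and 58.2 in cKO (log2 fold change 0.14, SE 0.17), with overlapping groups. Cdc6, the ATPase that loads MCM together with Cdt1, had 28.7 and 23.8 in WT and 29.6 and 28.2 in cKO, and overlapped as well.

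The 6 genes of the MCM2-7 ring summed to 1104 and 1069 CPM in WT and 1152 and 1201 in cKO, a ratio of 1.08, and all 6 had a log2 fold change above 0, between 0.06 and 0.18. Mcm7 (chr5:138164583-138172422, minus strand) was highest by reads, with 308 and 306 CPM in WT and 311 and 344 in cKO (log2 fold change 0.10, SE 0.15). Most of that difference lay in cKO 2. Mcm2 had the largest log2 fold change of the ring, with 191 and 181 CPM in WT and 200 and 218 in cKO (0.18, SE 0.15, 95% interval -0.16 to 0.52). Mcm3 had 158 and 148 CPM in WT and 168 and 169.7 in cKO, and Mcm5 had 168 and 163 in WT and 172 and 193 in cKO. Mcm6 had 167 and 161 in WT and 176.5 and 169 in cKO. The groups stood apart for these 5 genes by a narrow margin, with cKO above WT, as in 10.4% of all genes tested. The groups overlapped for Mcm4, at 113 and 110.1 CPM in WT and 124 and 106 in cKO. The 6 subunits form the ring in equal numbers, but their transcripts were not level. Per kilobase of exon, Mcm7 gave 28.2% of the summed signal and Mcm2 11.2%, as means over the 4 libraries. The place of Mcm2 depended on the length used. Per kilobase of principal transcript Mcm2 (58.6 CPM) came next after Mcm7 (107), and Mcm4 (31.5) was lowest of the ring. Within the reads of the ring the share of Mcm7 stayed between 27.0% and 28.7% and that of Mcm4 between 8.86% and 10.7% in all 4 libraries.

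Cdc45 and GINS, which with MCM2-7 make up the active helicase, and Mcm10, which is needed to activate it, were also all above 0, by 0.10 to 0.18. Mcm10 had the most reads, with 41.9 and 37.2 CPM in WT and 42.2 and 41.7 in cKO (log2 fold change 0.10, SE 0.16). Gins3 had the largest log2 fold change, 0.18 (SE 0.24), from 14.2 and 11.2 CPM in WT and 16.1 and 12.5 in cKO, and its groups overlapped. Cdc45 did not overlap, with 36.2 and 35.3 CPM in WT and 41.7 and 38.5 in cKO. Gins1 had 31.4 and 27.5 in WT and 30.8 and 34.4 in cKO, and Gins4 had 30.9 and 30.7 in WT and 30.7 and 37.6 in cKO. Gins2 was at 20.98 and 18.9 in WT and 21.99 and 22.6 in cKO, although 67.3% of its exon bases are shared with Gse1 on the opposite strand, which had 95.2 to 120.2 CPM. Mcm8 and Mcm9 are helicases of recombination and repair rather than of the fork. They were among the lower levels, with Mcm9 at 18.2 and 19.6 CPM in WT and 19.7 and 15.6 in cKO (-0.09, SE 0.21) and Mcm8 at 18.5 and 17.1 in WT and 19.4 and 16.4 in cKO.

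Polymerase alpha and primase differed little, with a median log2 fold change of 0.01 over 4 genes. Prim1, the catalytic primase subunit, had 65.3 and 54.8 CPM in WT and 63.8 and 56.3 in cKO (log2 fold change 0.01, SE 0.16). Pola2, the regulatory subunit of polymerase alpha, had 60.0 and 53.5 in WT and 61.8 and 63.8 in cKO (0.16, SE 0.15), and its groups did not overlap. The catalytic subunit Pola1, on chromosome X, had 28.9 and 31.4 in WT and 36.3 and 24.0 in cKO, so that the cKO libraries lay on either side of the WT libraries. Prim2 had 43.99 and 40.8 CPM in WT and 40.3 and 41.7 in cKO.

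Among the polymerase delta genes, cKO 2 was the highest library for all but Pold3. Pold1, the catalytic subunit, had 104 and 113 CPM in WT and 101 and 129 in cKO (log2 fold change 0.10, SE 0.17). Pold4, the smallest subunit, had 6.04 and 5.99 in WT and 5.76 and 8.18 in cKO (0.22, SE 0.29), and shares 24.6% of its exon bases with another gene on its own strand. Pold2 had 56.6 and 54.9 in WT and 48.96 and 71.5 in cKO. In these 3 genes cKO 1 was the lowest library and the log2 fold change lay below 0 without cKO 2 (-0.09 in Pold1, -0.18 in Pold2 and -0.05 in Pold4). Pold3 was level, with 97.7 and 89.9 CPM in WT and 96.1 and 91.2 in cKO.

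Polymerase epsilon was above 0 in 3 of 4 genes. Pole3, a histone-fold subunit, had both the most reads and the largest log2 fold change, with 93.9 and 82.1 CPM in WT and 95.1 and 104 in cKO (log2 fold change 0.19, SE 0.15, 95% interval -0.16 to 0.54). The catalytic subunit Pole had 74.5 and 69.6 in WT and 85.1 and 75.2 in cKO, and Pole4, the partner of Pole3, had 35.3 and 31.7 in WT and 37.6 and 36.6 in cKO. The groups did not overlap for these 3 genes, with cKO above WT, as in 10.4% of all genes tested. The nearest WT and cKO libraries were nonetheless close for Pole3 and Pole. Pole2 lay below 0 (-0.04), at 13.7 and 11.98 CPM in WT and 13.3 and 11.5 in cKO.

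The clamp and its loader were all above 0. Pcna, the sliding clamp that tethers the polymerases (chr2:132249162-132253314, minus strand), had 4926, 4899, 5418 and 4860 counts in library order, or 286, 264, 297 and 269 CPM. Its cKO libraries lay on both sides of WT 1, and the log2 fold change was 0.05 (SE 0.15, 95% interval -0.29 to 0.39). Rfc4, a small subunit of the loader, had the largest log2 fold change of the group, with 33.2 and 29.0 CPM in WT and 37.3 and 35.3 in cKO (0.23, SE 0.17). Rfc1, the large subunit, had 73.2 and 74.8 in WT and 88.6 and 74.5 in cKO, so its difference lay in cKO 1. Rfc2 had 103.9 and 100.1 in WT and 101.4 and 122 in cKO, so its difference lay in cKO 2. Rfc3, at 58.6 and 57.5 in WT and 58.7 and 61.5 in cKO, and Rfc5, at 51.0 and 50.9 in WT and 52.3 and 56.5 in cKO, had log2 fold changes of 0.06 and 0.10.

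Replication protein A, which coats single-stranded DNA, followed the pattern of the whole set, with WT 2 lowest for each of its genes. Rpa1, the large subunit, had 119 and 107 CPM in WT and 122 and 116 in cKO (log2 fold change 0.09, SE 0.14). Rpa2 had 58.3 and 54.8 in WT and 59.99 and 64.0 in cKO (0.14, SE 0.15), with groups that did not overlap. Rpa3 had 32.1 and 25.6 in WT and 29.3 and 30.5 in cKO.

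Of the genes that finish Okazaki fragments, Lig1, the ligase, had 164 and 152 CPM in WT and 158 and 170.5 in cKO (log2 fold change 0.07, SE 0.15). Fen1, the flap endonuclease, had the lowest level, with 23, 20, 25 and 28 counts in library order (0.28, SE 0.43, 95% interval -0.71 to 1.27). Of the exon bases of Fen1 (chr19:10199132-10204169, minus strand), 84.2% are shared with genes on the opposite strand. Gm10143 covers 78.8% and had 18, 28, 26 and 27 counts. How reads on shared bases were assigned is not given in the sources used here, so the level of Fen1 is uncertain.

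Other genes that work with the machinery, listed separately, were not called in any group. Origin firing and replisome partners (25 genes) had a median log2 fold change of 0.06, with Top2a, the topoisomerase of mitotic chromosomes, at 432 and 453 CPM in WT and 519 and 410 in cKO, and Top1, which relaxes DNA ahead of the fork, at 290 and 304 in WT and 339 and 205 in cKO. Nucleotide supply (10 genes) had a median of 0.12, with the ribonucleotide reductase subunits Rrm1, at 223 and 225 CPM in WT and 260 and 213 in cKO, and Rrm2, at 220 and 225 in WT and 231 and 223 in cKO. Chromatin assembly behind the fork (11 genes, median 0.07) was led by the histone chaperone Nasp, at 416 and 385 CPM in WT and 472 and 375 in cKO, and the maintenance methyltransferase Dnmt1, at 372 and 366 in WT and 378 and 379 in cKO. The replication checkpoint (10 genes) had a median of 0.06, and translesion synthesis (6 genes) a median of -0.04. Their most abundant genes were the phosphatase Cdc25a, at 76.8 and 69.6 CPM in WT and 77.0 and 77.5 in cKO, with the kinase Wee1, at 46.9 and 42.1 in WT and 52.9 and 35.8 in cKO. For translesion synthesis they were the polymerase subunit Rev3l, at 87.7 and 95.5 in WT and 102.6 and 56.1 in cKO, and Rev1, at 24.7 and 29.8 in WT and 32.4 and 23.9 in cKO. In Top2a, Top1, Rrm1, Nasp, Wee1, Rev3l and Rev1 cKO 2 was the lowest library. Of these 62 genes, 45 had a log2 fold change above 0, against 47.9% of all genes tested. By list, in the order named, both cKO libraries lay above both WT libraries in 4, 3, 4, 3 and 0 genes. The share of all genes tested was 10.4%. Below both WT libraries they lay in 0 genes of each list, against 11.2% of all genes.

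E2F factors and S phase cyclins (15 genes) had a median log2 fold change of 0.04, and mitotic genes (11 genes) a median of 0.11, close to that of the replication genes. Ccna2, the cyclin of S and G2 phase, had 129 and 124 CPM in WT and 156 and 119.9 in cKO, and E2f4, an E2F member of the repressive class, had 78.9 and 77.6 in WT and 74.1 and 93.9 in cKO. Mki67, the gene of the proliferation marker Ki-67, had 387 and 435 in WT and 501 and 379 in cKO, and the mitotic motor Kif11 had 168 and 155 in WT and 180.1 and 141 in cKO. The cKO libraries lay on both sides of the WT libraries for Ccna2, Mki67 and Kif11, so that none of them separated the groups. Some other genes of these lists did. In 3 of the 11 mitotic genes and 1 of the 15 others both cKO libraries exceeded both WT libraries, against 10.4% of all genes. They lay below both WT libraries in 0 genes of either list, against 11.2% of all genes.

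**Figure D4:**
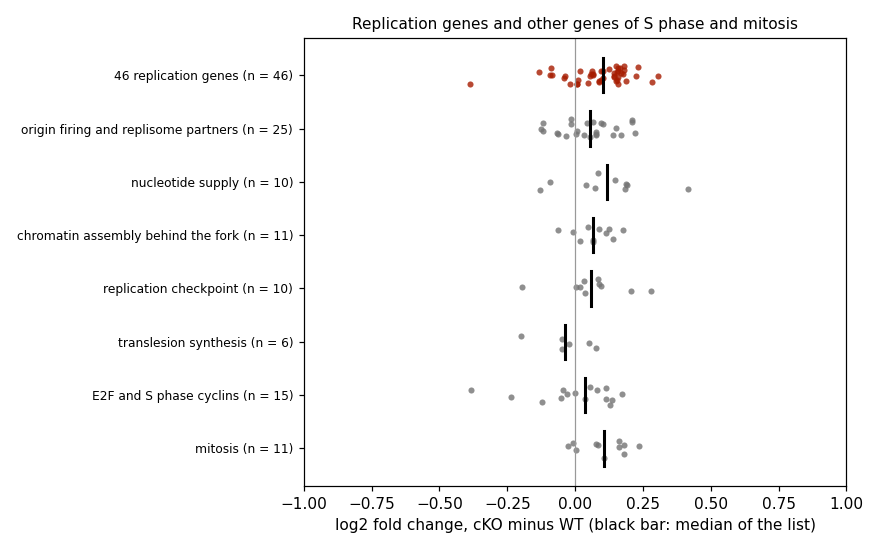
Log2 fold change, cKO minus WT, of each gene (1 point a gene) of the 46 replication genes and of 7 other lists of S phase and mitosis, with the median of each list as a black bar. The medians lie between -0.04 and 0.12, against 0.10 for the replication genes, and no gene of any list was called.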

How the data were processed

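Total RNA of 4 E13 libraries (2 WT, 2 cKO) was sequenced on an Illumina HiSeq instrument. The authors deposited raw counts of reads per gene in a table of all 4 libraries (27304 rows, of which 11, or 0.0403%, name no gene and were left out) and in a table of WT 1 and cKO 1, in which the counts of the 21342 shared genes are identical. The submitters' processing notes name Bowtie2 2.2.3, TopHat2 2.0.12, HTSeq 0.6.0 and the build mm9, while 97.3% of 27232 genes have a start or end within 1 base of GENCODE M21 (GRCm38). Positions are therefore given as GRCm38. The strand setting is not given in the sources used here. The deposited columns of fold changes, p-values and normalized values were not used.

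The quasi-likelihood test of edgeR 4.0.16 (R 4.3.3) was run on all 4 libraries with TMM factors, the filterByExpr filter and no covariate. A 95% interval was computed from the SE, which is the absolute log2 fold change over the square root of F. CPM were divided by the plain library total. The fit was tested on simulated data. Alternatives were other normalizations and filters, DESeq2 1.42.0, a replicate block, a GC-corrected offset and leaving out each library. Same-numbered libraries had a correlation of deviations of 0.108 over 16145 genes, and the labels name nothing they share, so the block was an alternative only.

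The members and lists were chosen with earlier results of these data known. All members are named, with statistics in each role for the gene with the highest mean CPM and that with the largest absolute log2 fold change. By the rule, genes of other lists are named where called or among the 2 with the highest mean CPM of their list, and not all of the latter are printed. Folr1, Ttr, Clic6, Nkx2-1, Dlx5, Gad1, Gad2, Sox2, Hes5, Lhx2, Fabp7, Stmn2, Map2, Neurod6, Tbr1 and the genes that overlap a member were named after their values were seen. Protein sequences were not analysed here.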

Additional observations from a re-analysis of the deposited data

How the results depend on the processing

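Few counts limit most the value of Fen1, which had 20 to 28 and shares 84.2% of its exon bases with other genes. The count of 0 replication genes called was the same under every alternative run except that without cKO 1, where it was 1 (Orc4), so it ranged from 0 to 1 when a library was left out. The number of all genes called was 131 and moved to 405 with no filter on low counts, 72 where every library had to reach 10 counts, 65 with DESeq2, 208 with the replicate block, 14 at an unadjusted p of at most 0.01, 199 with no fold threshold and 0 at an adjusted p under 0.05 (199 had an unadjusted p of at most 0.05). Genes at an adjusted p under 0.05 numbered 0 with DESeq2, 65 with no filter on low counts, 5 with the replicate block, 7 without WT 1, 116 without WT 2, 105 without cKO 1 and 0 without cKO 2. The number called ranged from 104 without WT 1 to 531 without cKO 1, with 476 without WT 2. The summed level had a log2 ratio of 0.09, from 0.043 without WT 2 to 0.129 without WT 1. The median log2 fold change of the 46 genes stayed between 0.09 and 0.14 in all alternatives, and the number above 0 ranged from 32 (without cKO 1) to 41. With the replicate block Pola1 changed sign, to -0.016, and the log2 fold change of Orc4 was -0.52 (unadjusted p of 0.0228), past the unadjusted threshold but not called. No other call among the replication genes changed with the block. With the GC-corrected offset, chosen after seeing the data, Orc3 (0.00996), Pole2 (0.030) and Orc2 (0.041) changed sign. Left-out libraries moved 18 genes across 0, and the cause was not tested. From the fit without cKO 1 to that without cKO 2, the log2 fold change went from -1.24 to 0.16 in Orc4, -0.35 to 0.26 in Orc2, -0.34 to 0.13 in Orc3, -0.29 to 0.022 in Orc5, -0.30 to 0.28 in Pola1, -0.26 to 0.070 in Mcm9, -0.13 to 0.062 in Pole2, -0.095 to 0.14 in Mcm8, -0.042 to 0.16 in Mcm4 and -0.012 to 0.12 in Pcna, and the other way in Pold1 (0.27 to -0.092), Pold2 (0.38 to -0.18) and Pold4 (0.47 to -0.052). From the fit without WT 2 to that without WT 1 it went from -0.25 to 0.11 in Orc1, -0.067 to 0.0028 in Prim2, -0.028 to 0.054 in Pold3, -0.087 to 0.13 in Prim1 and -0.070 to 0.22 in Rpa3. These fits assume that the lone library of a group varies like the others.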

Other observations

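Markers of choroid plexus, meninges and mesenchyme, blood, endothelium and microglia each had their highest summed level in WT 1. For choroid plexus, 3 of the 6 genes in the 4-library table passed the filter and all 3 were called lower (Htr2c, Aqp1 and Otx2, a regulator of choroid plexus fate). Otx2 had 358 and 124 counts in WT 1 and WT 2 and 71 and 125 in cKO 1 and cKO 2, so that its groups overlapped. Folr1 had 67 and 0 counts in WT 1 and WT 2 and 8 and 4 in cKO 1 and cKO 2, so that its groups overlapped as well. In the table of WT 1 and cKO 1 alone, Ttr, the transthyretin made by choroid plexus, had 5071 and 23 counts, and Clic6 had 526 and 2. For meninges and mesenchyme, the collagen genes Col1a1 (1160, 179, 221 and 106 counts in that order) and Col1a2 (1303, 230, 341 and 184) were called lower, 2 of 6 genes tested. Col3a1, also a collagen gene, had 101, 22.7, 34.4 and 15.6 CPM in the same order. None of the genes of blood, endothelium and microglia was called. Summed over each list, blood had 1080 CPM in WT 1 and 577 in WT 2 against 469 and 705 in cKO, endothelium had 147 and 109 against 97.9 and 96.0, and microglia had 29.1 and 20.9 against 17.7 and 20.8. The part of these cells in the levels of the replication genes was not tested. Ventral telencephalon (6 genes) had 914 and 846 CPM in WT and 577 and 865 in cKO, with none called. Here cKO 1 stood apart, and was the lowest library for Dlx1 (391, 369, 246 and 376 CPM in the same order of libraries), Dlx2, Dlx5 and Nkx2-1 (81.8, 55.8, 14.4 and 64.4 CPM), which are ventral transcription factors. Gad1 and Gad2, the enzymes of GABA synthesis, lay below both WT libraries in both cKO libraries, as did 11.2% of all genes tested. Both were picked from the 6 genes after their values were seen, and the groups overlapped for Dlx1, Dlx2, Dlx5 and Nkx2-1. Gad1 had 80.7 and 72.9 CPM in WT and 57.7 and 54.2 in cKO (log2 fold change -0.45, SE 0.15, unadjusted p of 0.0179 and adjusted p = 0.9999 from edgeR), and Gad2 had 117 and 115 in WT and 97.9 and 98.0 in cKO (-0.24, SE 0.14). Of all genes tested, 1.23% had an unadjusted p of at most 0.05 in the same test, so the p of Gad1 does not single it out. Intermediate progenitors (4 genes) had 782 and 828 against 878 and 834 CPM, with none called.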
